A study of Mus musculus with 11 samples.

Results

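Müller glia were described in the retinas of mice at postnatal day 10, as the cells of a single-cell RNA sequencing data set that carried the genes of this cell type. A cell was counted as Müller glia when it had more than 300 detected genes, at least 1 UMI (unique molecular identifier, a counted RNA molecule) of at least 3 of the 7 genes Rlbp1, Slc1a3, Glul, Crym, Col9a1, Dapl1 and Aldh1a1, and no UMI of Rpe65, which marks pigment epithelium, or Pax2, which marks astrocytes. By this rule, 1450 of 20033 cells (7.24%) were Müller glia, and 25 cells that met the other conditions were left out for Rpe65 or Pax2. The cells came from 11 C57BL/6J mice in 4 groups. Control mice (n = 3) received the vehicle PBS, and Phase I ROP mice (n = 3) received streptozotocin (STZ), which induces hyperglycemia and stands in for the first phase of retinopathy of prematurity. These 6 mice were littermates. A further 5 mice, littermates of one another, all received STZ and were nursed by dams on an ω-3 long-chain polyunsaturated fatty acid (LCPUFA) diet (n = 2) or an ω-6 diet (n = 3). No mouse on either diet was without STZ, so the diets were compared only within Phase I ROP. Retinas were dissected free of the pigment epithelium, dissociated with papain and captured by inDrop, a droplet method that counts RNA molecules.

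Müller glia are the radial glia of the retina and span its whole depth. They take up glutamate and convert it to glutamine (Slc1a3, Glul), return visual chromophore to cones (Rlbp1), buffer potassium and water (Kcnj10, Aqp4), supply neurons with metabolites, and secrete factors that guide retinal vessels, among them Vegfa. They are the last retinal cell type born, maturing in mice over the first weeks after birth, and after injury they respond with stress and inflammatory transcription and, when reactive, with Gfap.

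The label was checked on other genes. Besides the 7 genes of the rule, the genes with the highest level in Müller glia relative to the other cells included Abca8a, Prelp, Mlc1, Cp, Aqp4, Car14, Vcam1, Sox9 and Apoe, genes known from Müller glia and other glia. Optc, Cyr61, Maff and Egr3, which are taken up below, were among the leading genes as well. The ranking describes cells that the rule selected, and no test was made on it. All 7 markers were present in 181 members, 6 in 498, 5 in 310, 4 in 230 and 3 in 231. At the edge of the rule, the 231 members with 3 markers had a median of 1557 UMIs per cell, whereas the 463 cells with 2 markers that stayed outside had a median of 3135. Members were deeper than the other cells, with a median of 2491 UMIs against 1482. Cells of different libraries shared 1154 of 18842 barcodes, and among members 6 of 1444 barcodes were shared.

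Müller glia made up 8.11%, 5.59% and 9.65% of the cells in the control mice and 7.75%, 7.23% and 5.41% in Phase I ROP. The share was 10.5% and 5.43% on the ω-3 diet and 4.70%, 7.01% and 10.2% on the ω-6 diet. The ranges of all 4 groups overlapped, and no test was made on the share. The number of members per mouse ran from 44 in control mouse 2 to 252 in the first ω-3 mouse, and their summed UMIs from 178874 to 877162. The values below are sums over the members of a mouse, so less RNA per cell cannot be told apart from fewer expressing cells.

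**Figure D1:**
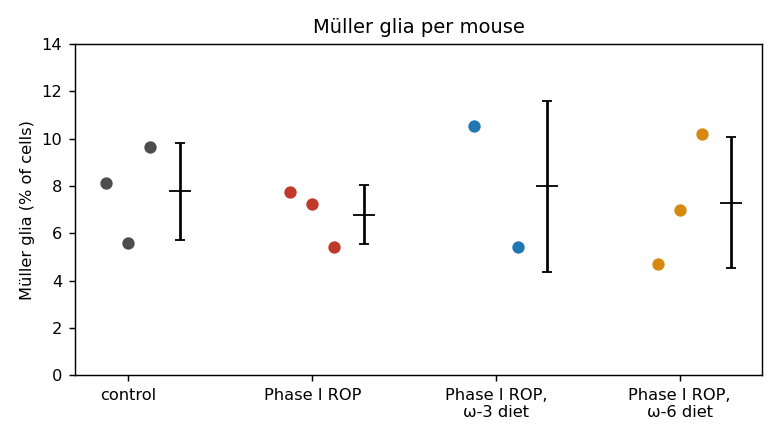
Müller glia as a percentage of all cells with more than 300 genes (vertical axis) in each of the 4 groups, with 1 point per mouse and the mean ± SD of the group. Points of all groups overlap, from 4.70% in an ω-6 mouse to 10.5% in an ω-3 mouse.

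Other kinds of cells or RNA were present in the Müller glia sums and differed between the groups. Transcripts of 13 rod genes amounted to 428, 252 and 755 CPM (UMIs of a gene or list scaled to a common library size) in the control mice and 2726, 3191 and 3804 in Phase I ROP. They reached 5515 and 6781 on the ω-3 diet and 4298, 13721 and 10915 on the ω-6 diet. The sums in Phase I ROP and on both diets were all above those of the controls. In 217 members at least 6 of the 13 rod genes had a UMI, which was the case for 4%, 0% and 2.78% of the control members, 10.8%, 11.9% and 12.8% of the Phase I ROP members, and 12.2% to 23.7% of those on the diets. A group of 32 members with at least 2 UMIs of Optc, of which 7 came from Phase I ROP mouse 3 and none from Phase I ROP mice 1 and 2, also stood apart. It led with Optc (4520 CPM against 4.77 in the other members), Crhbp, Fam129a and Wfdc1, and had little Crym (99.6 against 3234) and Rlbp1 (251 against 2692). These cells met the rule but are called here by their leading genes only. When the Optc cells and all members with at least 3 rod, bipolar or amacrine markers were left out, 1049 members remained, and their rod transcripts amounted to 271, 256 and 260 CPM in the controls, 285, 372 and 421 in Phase I ROP, and 316 to 547 on the diets. This stricter set was chosen after the data were seen. The calls it changed among the named genes are given below, and some genes were too low in it to be tested.

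**Figure D2:**
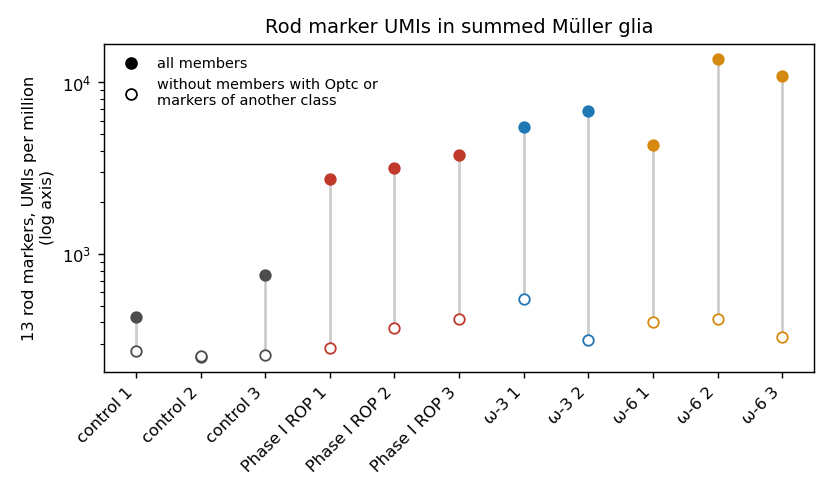
Summed level of 13 rod markers in Müller glia (vertical axis, CPM, log scale) for each of the 11 mice on the horizontal axis, for all members (filled points) and for the stricter set without Optc cells and cells with markers of another class (open points). Filled points range from 252 in a control mouse to 13721 in an ω-6 mouse, and open points from 256 to 547.

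Markers of the remaining cell types ran from low sums (microglia) to sums above those of the rod genes in the controls (astrocytes). Over the 9 microglia genes the sum was 22.3, 21.9 and 54.4 CPM in the controls and 23.3, 13.4 and 43.3 in Phase I ROP, and none of the 9 passed the filter on low counts in that comparison. Over the 8 endothelial genes it was 141 to 268 in the controls and 184 to 303 in Phase I ROP. Over the 10 bipolar genes it was 76.7 to 208 and 175 to 263, and over the 10 amacrine genes 130 to 296 and 143 to 200. Over the 8 pigment epithelium genes it was 400 to 529 and 309 to 403, and over the 7 astrocyte genes, of which Aldoc is also a Müller glia gene, 765 to 1143 and 893 to 1165. The 7 cone genes summed to 7.44, 27.4 and 37.9 in the controls and 137, 363 and 253 in Phase I ROP, so cone as well as rod transcripts were higher there. On the diets the sums reached 625 (cone) and 643 (amacrine) in ω-6 mouse 3, 540 (endothelial) in ω-6 mouse 2 and 704 (pigment epithelium) in ω-3 mouse 2. In the stricter set, microglia genes reached 865 in ω-6 mouse 2 and pigment epithelium genes 1158 in ω-3 mouse 2, so other cell types remained in it.

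The first comparison asked how Phase I ROP changed Müller glia. Of 5301 genes tested, 566 (10.7%) differed, of which 306 were higher in Phase I ROP (5.77% of the genes tested) and 260 were lower (4.9%). Every adjusted p given here is from the quasi-likelihood test of edgeR on sums per mouse, adjusted by Benjamini-Hochberg, with 0.05 as the threshold. The 8 largest increases were those of Nr4a3, Egr3, Atf3, Maff, Irs2, Cxcl10, Cebpb and Fosb, all transcription factor genes apart from Irs2 and Cxcl10, and the decreases included 24 genes of the respiratory chain. The median log2 fold change over all genes was 0.0034. The scaling between libraries (TMM) brings this median near 0, so it does not show that the libraries were alike. The number of genes called depended on single mice. It was 318 without Phase I ROP mouse 1, 267 without mouse 2, 268 without mouse 3 and 310 without control mouse 1.

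Immediate-early genes are switched on within minutes by growth factors, calcium, cytokines and mechanical or metabolic stress, without new protein synthesis, and most encode transcription factors (the Fos, Jun, Egr, Nr4a and Klf families) or brakes on signalling (Zfp36, Nfkbia, Ier3). The same genes respond to the enzymatic dissociation of tissue. Of 43 such genes, 30 could be tested. All 30 had a positive log2 fold change, 25 were called higher (against 5.77% of all genes tested), and none was called lower. Their median log2 fold change was 3.07 against 0.0034 over all genes. Genes near 0 in the controls, such as Nr4a3, Egr3, Atf3 and Maff, passed the filter only through the Phase I ROP mice. Such genes could only be found higher, which limits what the shared direction and the count can show. The libraries of the groups also differed in other measures. The median UMIs per member were 2963, 3357.5 and 2124.5 in the controls and 1937.5, 1692 and 1765 in Phase I ROP. The share of free RNA, taken as the share of rod transcripts in the members divided by that in all cells of the mouse, was 9.16% to 12.1% and 16.7% to 18.3%. Members that carry many rod genes count towards this share as well, so it does not measure free RNA alone. With that share subtracted, 24 of 29 tested genes were called higher, and in sums thinned to equal depth 25 of 29.

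The orphan nuclear receptor gene Nr4a3 (chromosome 4, 48045153 to 48086447, GRCm38) had no UMI in any control mouse and 449, 363 and 393 CPM in Phase I ROP. It was at least 119-fold higher (adjusted p = 1.01e-06), taking 3 counts over the control group as the floor. On the diets it stood at 447 and 399 (ω-3) and 302, 233 and 199 (ω-6). No control member thinned to 500 UMIs had a UMI of Nr4a3, whereas 13%, 15.6% and 14% of the Phase I ROP members had one. Rods at the same depth had one in at most 0.276% of cells in Phase I ROP. Egr3, an Egr family transcription factor on chromosome 14, was likewise at 0 in all 3 controls and at 140, 376 and 213 in Phase I ROP, at least 65.9-fold higher (adjusted p = 6.75e-05). Atf3, the stress-induced ATF/CREB factor, rose from 0 in every control to 152, 62.7 and 183, at least 40.7-fold higher (adjusted p = 0.00028). For these 3 genes every Phase I ROP mouse was above every control mouse, which held for 16.1% of all genes tested.

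Maff, a small Maf factor that pairs with Nrf2 or Fos proteins, was measured at 0, 0 and 4.73 CPM in the controls and at 753, 828 and 666 in Phase I ROP (log2 fold change 8.13 ± 0.40 SE, adjusted p = 7.31e-08). Fosb went from 3.72, 5.48 and 4.73 to 578, 622 and 892 (7.14 ± 0.36, adjusted p = 7.31e-08). Nr4a1 went from 7.44, 27.4 and 7.10 to 808, 425 and 722 (5.76 ± 0.42, adjusted p = 1.95e-06). These were among the best separated genes of the data set, with the lowest Phase I ROP mouse of each at more than 10 times the highest control mouse. Fos itself differed less, because it was already present in the controls at 182, 170 and 455 against 820, 524 and 1714 (1.90 ± 0.41, adjusted p = 0.0101). The call of Fos rested on single mice, with adjusted p = 0.0506 without Phase I ROP mouse 3, 0.0678 without control mouse 1 and 0.0556 without control mouse 2. Egr1, with 156, 121 and 251 in the controls and 490, 148 and 549 in Phase I ROP, did not pass the test (1.16 ± 0.38, adjusted p = 0.0713), as Phase I ROP mouse 2 lay within the control range. Without that mouse Egr1 was called (adjusted p = 0.00835). The other genes of the list that missed the threshold were Ier2, Dusp6, Ctgf and Dusp1, with log2 fold changes from 0.92 to 1.65 (named to complete the count).

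**Figure D3:**
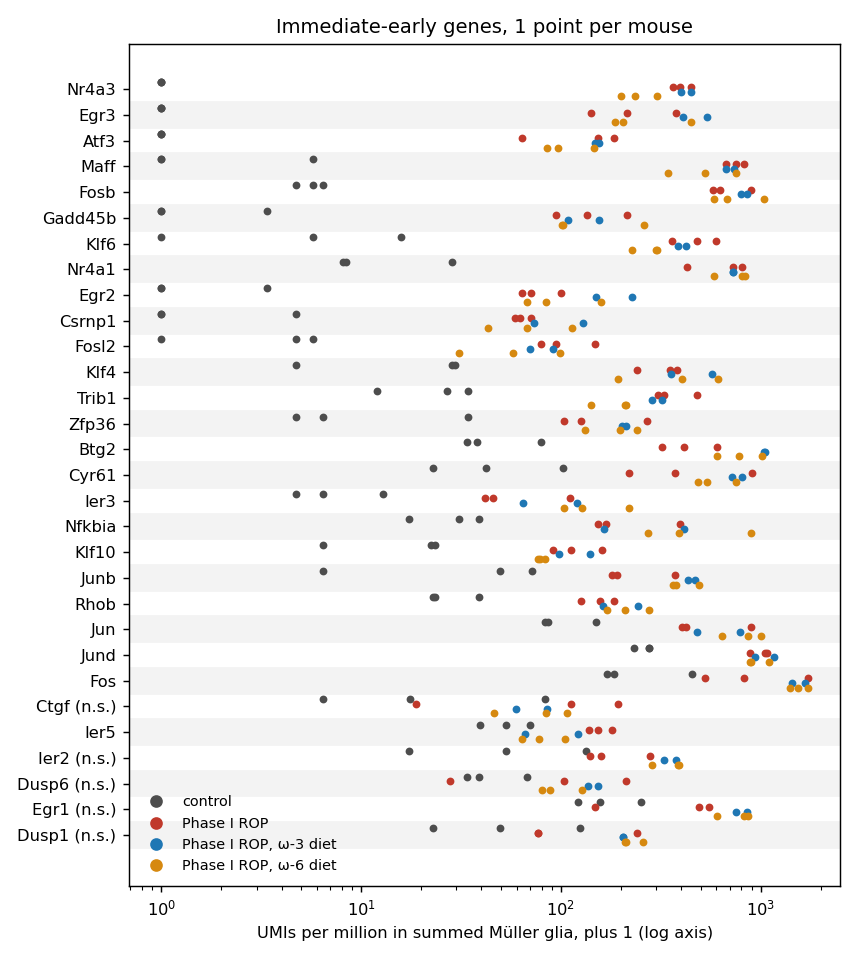
Levels of the tested immediate-early genes in Müller glia (horizontal axis, CPM plus 1, log scale), with 1 point per mouse coloured by group; genes marked n.s. did not pass the test of Phase I ROP against control. For Nr4a3 the control mice sit at 0 and the 3 Phase I ROP mice between 363 and 449. The ω-3 mice lie at 447 and 399, and the ω-6 mice at 302, 233 and 199, below the Phase I ROP mice.

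Promoters of these genes are shown because they rose together. RefSeq promoter windows of build GRCm38.p6, from 250 bases before to 50 after the start site, were found for 21 of the 25 genes called higher. Egr3, Cyr61, Klf10 and Trib1 were not in the table. Both strands were searched for the cAMP response element (CRE) TGACGTCA, its half-site TGACG, the AP-1 site TGAGTCA and the serum response CArG box. A CRE half-site was present in 9 of the 21 windows (42.9%), against 35% of the promoters of all genes tested in Müller glia and 21% of all 27025 promoters. A half-site is also found wherever a full CRE is. A full CRE was in 1 of 21 (4.76%), against 4.24% of the promoters of all genes tested in Müller glia and 1.88% of all promoters. A CArG box was in 1 of 21 (1.35% and 1.57%) and an AP-1 site in 0 of 21 (3.13% and 5.17%). These matches describe letters in a window and not bound sites. The 250 bases upstream of the start site follow for Nr4a3, with 4 half-sites, for Btg2, with the full CRE, and for Zfp36, with the CArG box, each read 5′ to 3′ on the strand of the gene with the matches in capitals.
Nr4a3, chr4:48045055-48045304, plus strand: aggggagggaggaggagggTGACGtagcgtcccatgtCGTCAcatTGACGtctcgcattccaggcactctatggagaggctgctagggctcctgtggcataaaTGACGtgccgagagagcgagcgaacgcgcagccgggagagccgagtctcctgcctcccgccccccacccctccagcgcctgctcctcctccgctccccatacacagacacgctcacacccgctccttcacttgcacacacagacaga
Btg2, chr1:134079156-134079405, minus strand: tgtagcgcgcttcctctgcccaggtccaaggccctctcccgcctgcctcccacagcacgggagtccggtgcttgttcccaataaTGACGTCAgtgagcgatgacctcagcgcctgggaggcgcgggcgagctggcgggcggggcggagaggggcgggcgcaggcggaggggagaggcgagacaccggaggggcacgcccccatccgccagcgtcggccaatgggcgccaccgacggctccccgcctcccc
Zfp36, chr7:28379229-28379478, minus strand: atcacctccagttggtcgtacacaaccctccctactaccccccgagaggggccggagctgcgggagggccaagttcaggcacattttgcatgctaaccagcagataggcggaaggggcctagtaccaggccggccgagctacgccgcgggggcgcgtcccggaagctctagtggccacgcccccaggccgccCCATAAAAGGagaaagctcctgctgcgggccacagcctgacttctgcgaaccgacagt

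In the Nr4a3 window the half-sites began 231, 213, 205 and 147 bases before the start site, in the Btg2 window the CRE began 166 bases before it, and in the Zfp36 window the CArG box began 58 bases before it. Btg2 and Zfp36 were picked for these motifs after their values were seen. Btg2, an antiproliferative gene, stood at 37.2, 32.9 and 78.1 CPM in the controls and 414, 318 and 606 in Phase I ROP (log2 fold change 3.09 ± 0.33, adjusted p = 6.86e-05). Zfp36, which encodes a protein that destabilizes cytokine mRNAs, stood at 3.72, 5.48 and 33.1 against 102, 125 and 270 (3.26 ± 0.57, adjusted p = 0.00313). For both genes every Phase I ROP mouse was above every control mouse, as for 16.1% of all genes tested.

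The immediate-early increase was spread over many members. In cells thinned to 500 UMIs, the list gave a mean of 0.569, 0.581 and 0.979 UMIs per Müller glial cell in the controls and 4.57, 3.69 and 5.63 in Phase I ROP. A cell with 5 or more such UMIs was seen in 1.39%, 0% and 2.82% of the control members and in 45.5%, 35.4% and 52.1% of the Phase I ROP members. The share of members with none was 66.7%, 58.1% and 52.8% in the controls and 20.8%, 24% and 15.7% in Phase I ROP. On the diets the mean was 6.10 and 6.28 (ω-3) and 6.43, 4.95 and 3.59 (ω-6), within or above the range of Phase I ROP apart from the last ω-6 mouse. In the stricter set of members, 23 of 28 tested genes of the list were called higher, and leaving out single mice gave 23 to 28 genes.

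Reactive glia genes were in part called higher. Of the 30 genes in the list 11 could be tested, 6 were called higher and none lower, with a median log2 fold change of 1.02. Of all genes tested, 5.77% were called higher and 4.9% lower. Cebpb and Cxcl10 passed the filter on low counts only through the Phase I ROP mice, so they could only be found higher. Cebpb and Cebpd, leucine zipper factors of the inflammatory response, rose from 0, 0 and 2.37 to 298, 233 and 226 CPM (7.35 ± 0.51, adjusted p = 1.65e-06) and from 37.2, 11 and 35.5 to 374, 591 and 669 (4.17 ± 0.34, adjusted p = 5.32e-06). Stat3, which relays cytokine signals and drives gliosis, rose from 33.5, 60.3 and 85.2 to 268, 322 and 253 (2.19 ± 0.30, adjusted p = 0.000504). Tnfrsf12a, the receptor of TWEAK, rose from 14.9, 5.48 and 21.3 to 155, 139 and 153 (3.24 ± 0.38, adjusted p = 0.000142). Cxcl10, an interferon-induced chemokine, was at 0 in the controls and at 37.9, 67.1 and 113 in Phase I ROP, at least 20.8-fold higher (adjusted p = 0.00149). All 3 Phase I ROP mice were above all 3 controls for each of these 5 genes, which held for 16.1% of all genes tested. The metallothionein gene Mt1 rose less (0.88 ± 0.19, adjusted p = 0.00936), and its call was lost without Phase I ROP mouse 2 (adjusted p = 0.0707). Gfap, the classical marker of reactive Müller glia, was too low to test, with 3.72, 0 and 4.73 in the controls and 5.84, 4.48 and 53.3 in Phase I ROP. Its highest value fell in mouse 3, the Phase I ROP mouse with the Optc cells. The intermediate filament gene Vim, at 1128, 1063 and 1082 against 1048, 1307 and 1421, did not pass the test (0.20 ± 0.17, adjusted p = 0.472).

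Among stress-responsive genes outside that list, a few rose. The chaperone gene Dnajb1, a partner of Hsp70, was at 40.9, 11 and 21.3 CPM in the controls and 482, 157 and 140 in Phase I ROP (log2 fold change 3.37 ± 0.53, adjusted p = 0.00149). It was 1 of 3 heat shock genes called higher of 13 tested (against 5.77% of all genes). The other 2, Dnaja1 and Hspa5, lost the call whichever of the 6 mice was left out (adjusted p from 0.0549 to 0.234). Hspa1b, an inducible Hsp70, stood at 1231 in Phase I ROP mouse 1 but at 62.7 and 39.9 in mice 2 and 3, against 52.1, 76.7 and 4.73 in the controls (adjusted p = 0.0595). Its high value was therefore that of a single mouse. In the stricter set Hspa1b was called (adjusted p = 0.0289). Atf4, the transcription factor of the integrated stress response, rose from 112, 71.2 and 99.4 to 324, 430 and 406 (2.01 ± 0.23, adjusted p = 0.000128). Srxn1, an Nrf2 target that repairs peroxiredoxins, rose from 3.72, 16.4 and 11.8 to 105, 282 and 190 (4.16 ± 0.51, adjusted p = 0.000217). Of 21 antioxidant genes tested 2 were higher (against 5.77% of all genes) and 5 were lower (against 4.9%). The latter included the glutathione transferase genes Gstp1 (-1.35 ± 0.29, adjusted p = 0.0101) and Gstm5 (-0.86 ± 0.21, adjusted p = 0.0205). Without Phase I ROP mouse 3 these 2 calls were lost (adjusted p = 0.0503 and 0.0997), as was that of Gstp1 without mouse 1 (0.065) and that of Gstm5 without mouse 2 (0.0892) or control mouse 1 (0.101).

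Genes that act on vessels did not move as one group. Of 5 tested genes that promote vessel growth, none passed the test, with a median log2 fold change of 0.66. Vegfa, the principal angiogenic factor of Müller glia, was at 242, 159 and 104 CPM in the controls and 254, 278 and 273 in Phase I ROP (0.68 ± 0.28, adjusted p = 0.147). The highest control mouse was only just below the lowest Phase I ROP mouse. Vegfa was called in the stricter set of members (adjusted p = 0.0457) and among members with at least 4 markers (0.0396). The hypoxia-inducible factor genes Epas1 and Hif1a (0.66 and 0.59, adjusted p = 0.138 and 0.266) and Ndp, which encodes norrin (0.73, adjusted p = 0.223), did not pass. Of 6 tested genes that restrain vessel growth, 2 rose (against 5.77% of all genes). Adamts1, a protease that binds VEGF and releases antiangiogenic fragments, went from 14.9, 27.4 and 14.2 to 306, 376 and 280 (4.17 ± 0.32, adjusted p = 4.19e-06). Timp3, a metalloproteinase inhibitor that blocks VEGF receptor binding, went from 156, 175 and 111 to 303, 354 and 483 (1.39 ± 0.26, adjusted p = 0.00475). Both were without overlap between the groups, as were 16.1% of all genes tested in this direction. On the diets Adamts1 stood at 225 to 621. Sparc, the matricellular protein known to limit VEGF signalling, was among the most abundant transcripts at 4519, 4185 and 4311 in the controls and 3686, 4136 and 3661 in Phase I ROP, which did not pass the test (-0.19 ± 0.19, adjusted p = 0.556).

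Insulin-like growth factor signalling is of interest in retinopathy of prematurity, in which low serum IGF-1 precedes disease. All 9 tested genes of that list had positive log2 fold changes and 2 were called (against 5.77% of all genes called higher). Irs2, an adaptor of insulin and IGF receptors, was at 0 in the controls and at 93.4, 40.3 and 166 in Phase I ROP, at least 30.6-fold higher (adjusted p = 0.00127). Irs2 passed the filter on low counts only through the Phase I ROP mice, so it could only be found higher. The receptor gene Igf1r rose from 81.9, 49.3 and 90 to 161, 166 and 203 (1.22 ± 0.27, adjusted p = 0.013). Its call was lost without Phase I ROP mouse 3 (adjusted p = 0.0641) and in the stricter set (0.0975). Irs1 did not pass (0.75 ± 0.44, adjusted p = 0.298).

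Some of the genes by which Müller glia are recognized changed. Of 32 tested Müller glia genes outside the rule, 5 were higher (against 5.77% of all genes), 2 were lower (against 4.9%) and 25 did not pass, and their median log2 fold change was 0.15. Sox9, a transcription factor needed for Müller glia to form, rose from 335, 208 and 253 CPM to 587, 783 and 925 (1.52 ± 0.22, adjusted p = 0.000777). S1pr3, a sphingosine 1-phosphate receptor gene, rose from 63.3, 65.7 and 78.1 to 274, 251 and 303 (1.99 ± 0.24, adjusted p = 0.000167). Zfp36l1, which encodes an mRNA decay factor, rose from 249, 142 and 232 to 540, 752 and 706 (1.66 ± 0.21, adjusted p = 0.000324). No Phase I ROP mouse overlapped a control mouse for these genes, which held for 16.1% of all genes tested in this direction. Apoe, the lipid carrier secreted by retinal glia, fell from 4697, 4991 and 5092 to 2521, 2524 and 2290 (-1.02 ± 0.18, adjusted p = 0.00391), and stood at 1451 to 2221 on the diets, below every control. Dkk3, Clu and Aqp4 did not pass (0.18 ± 0.16, -0.12 ± 0.18 and 0.19 ± 0.36, adjusted p = 0.495, 0.713 and 0.775).

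The Id genes, inhibitors of basic helix-loop-helix factors that respond to BMP signals, fell together. Id3 went from 607, 614 and 537 CPM to 210, 98.5 and 120 (-2.01 ± 0.25, adjusted p = 0.000255), and Id1 from 246, 301 and 178 to 43.8, 40.3 and 96.5 (-1.97 ± 0.36, adjusted p = 0.00407). Id2 went from 543, 499 and 402 to 283, 134 and 150 (-1.33 ± 0.27, adjusted p = 0.00692), a call that was lost without Phase I ROP mouse 2 (adjusted p = 0.0503). On the diets Id3 stood between 238 and 329, between the control and the Phase I ROP mice. Together with Six6 and Hes6 these made 5 lower genes of 21 tested gliogenic and Notch pathway genes (against 4.9% of all genes). Sox9 and Nfix of the list were higher (against 5.77% of all genes). Six6, Hes6 and Nfix were chosen after their values were seen, to complete the count. The 7 calls of the list came to 3 without Phase I ROP mouse 2 and 4 without control mouse 1. Of 8 tested genes of a list of progenitor and cell cycle genes, 2 were called lower (against 4.9% of all genes) and 0 higher. The median log2 fold change of the list was 0.31. The 2 genes were Tuba1b and Cdkn1c (-0.96 ± 0.21 and -1.05 ± 0.25, adjusted p = 0.0116 and 0.0181). The call of Tuba1b was lost without Phase I ROP mouse 1 (0.0525), and that of Cdkn1c without Phase I ROP mouse 1 (0.101) or 3 (0.086) or control mouse 2 (0.0592). Ccnd1, at 108, 142 and 185 against 187, 188 and 339, did not pass (0.71 ± 0.29, adjusted p = 0.142).

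Genes of the glial support functions were called singly, against 10.7% of all genes tested. Of 11 tested genes of glutamate and GABA handling, 1 was called, the glutamine transporter gene Slc38a2, which rose from 44.7, 49.3 and 30.8 CPM to 163, 170 and 133 (1.95 ± 0.31, adjusted p = 0.00172). Of 10 genes of ion and water balance, 1 was called, Atp1b2 of the sodium pump (249, 164 and 227 against 452, 407 and 426, 0.99 ± 0.19, adjusted p = 0.00569). The potassium channel gene Kcnj10 did not pass (1.10 ± 0.36, adjusted p = 0.0684). Among the retinoid genes, Rdh5 was lower (-1.24 ± 0.34, adjusted p = 0.0357), a call that was lost whichever of the 6 mice was left out (adjusted p from 0.0577 to 0.114). In matrix and adhesion, 1 of 14 rose and 1 fell. They were N-cadherin (Cdh2, 0.73 ± 0.16, adjusted p = 0.0116) and neurocan (Ncan, -0.92 ± 0.21, adjusted p = 0.0146). Leaving out single mice raised the adjusted p of Cdh2 to 0.0604 (Phase I ROP mouse 1), 0.0609 (mouse 2), 0.0561 (control mouse 1) and 0.0552 (control mouse 3), and that of Ncan to 0.0848 (Phase I ROP mouse 1) and 0.0726 (mouse 3).

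The 7 genes of the rule are given as levels without a test, since cells were chosen by them. Crym stood at 4165, 4218 and 3849 CPM in the controls and 2810, 3079 and 2929 in Phase I ROP, and Dapl1 at 2084, 1967 and 2355 against 981, 1065 and 1395. Both were lower in every Phase I ROP mouse. Slc1a3 stood at 2576, 2783 and 1986 against 4045, 3992 and 3012, higher in every Phase I ROP mouse. Glul (4281, 4810 and 3139 against 5539, 5429 and 4447) and Rlbp1 (2926, 2860 and 2422 against 3315, 3420 and 2483) overlapped. So did Col9a1 (1009, 1189 and 1820 against 1611, 1652 and 2173) and Aldh1a1 (551, 367 and 398 against 438, 304 and 393).

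Respiratory chain transcripts were lower in Phase I ROP. All 54 nuclear-encoded subunit genes of the list were tested, 53 of them had negative log2 fold changes, 24 were called lower (against 4.9% of all genes) and none was called higher. The median log2 fold change was -0.71. By DESeq2, 10 of the 54 were called lower, in the stricter set of members 22. Leaving out a mouse left 7 calls without Phase I ROP mouse 1, 9 without mouse 2, 9 without mouse 3, 10 without control mouse 1 and 14 without control mouse 3. Among the complex I genes, Ndufa11 fell from 205, 181 and 227 CPM to 70.0, 85.0 and 73.2 (-1.44 ± 0.25, adjusted p = 0.0027), Ndufc2 from 354, 405 and 379 to 155, 206 and 166 (-1.12 ± 0.20, adjusted p = 0.00407), and Ndufb4 from 287, 236 and 163 to 61.3, 89.5 and 76.6 (-1.60 ± 0.30, adjusted p = 0.00443). Atp5g3, a subunit of ATP synthase, fell from 476, 433 and 608 to 198, 228 and 296 (-1.07 ± 0.20, adjusted p = 0.00524). For each of these 4 genes, and for 37 of the 54, the groups did not overlap, against 15% of all genes tested without overlap in this direction. The 13 mitochondrially encoded protein genes all had negative values (median -0.59), and 2 were called lower (against 4.9% of all genes). Their sum was 75415, 72570 and 78165 CPM in the controls, 79755, 28507 and 38656 in Phase I ROP and 56515 to 77707 on the diets, so Phase I ROP mice 2 and 3 stood apart from the other 9 mice and mouse 1 was above every control. The called genes were mt-Nd4l (-0.99 ± 0.20, adjusted p = 0.00727) and mt-Atp8 (-1.09 ± 0.30, adjusted p = 0.0368). Without Phase I ROP mouse 2 both calls were lost (adjusted p = 0.0534 and 0.147), whereas 12 of the 13 were called without Phase I ROP mouse 1. The call of mt-Atp8 was lost also without Phase I ROP mouse 3 (0.146) or control mouse 1 (0.093) or 2 (0.109).

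Glycolysis and lipid genes showed smaller differences. The counts below stand against 5.77% of all genes tested called higher and 4.9% called lower. Of 20 glycolysis genes tested, the enzyme genes Eno1, Pgk1 and Tpi1 were called lower (-0.78, -0.56 and -0.63, adjusted p = 0.0424, 0.0455 and 0.0474) and the lactate transporter gene Slc16a1 higher (0.70, adjusted p = 0.0452), with a median of -0.001 over the list. The calls of Pgk1 and Tpi1 were lost when any mouse but control mouse 3 was left out (adjusted p from 0.0885 to 0.172). That of Eno1 was lost without Phase I ROP mouse 2 (0.0596) or 3 (0.168) or control mouse 1 (0.0848) or 2 (0.0661), and that of Slc16a1 when any mouse but control mouse 2 was left out (0.0616 to 0.198). Of 17 lipid genes, Elovl5, which elongates polyunsaturated fatty acids, and the adiponectin receptor gene Adipor1 were called higher (0.98 ± 0.25 and 1.21 ± 0.34, adjusted p = 0.0246 and 0.037). Elovl5 stood at 96.8, 110 and 118 CPM in the controls and 207, 264 and 173 in Phase I ROP, and Adipor1 at 37.2, 71.2 and 56.8 against 99.2, 121 and 156. The call of Elovl5 was lost when any mouse but Phase I ROP mouse 3 was left out (adjusted p from 0.051 to 0.122), and that of Adipor1 when any mouse but control mouse 2 was left out (0.0558 to 0.151). Elovl2 was too low to test. Of 10 cholesterol genes none passed. Of 7 serine and one-carbon genes, Gldc was called higher beside Atf4 and Amt lower (1.11 ± 0.30 and -0.73 ± 0.21, adjusted p = 0.0315 and 0.0409), and the call of Gldc was lost when any mouse but control mouse 2, and that of Amt when any mouse but control mouse 3, was left out (adjusted p from 0.0694 to 0.158).

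**Figure D4:**
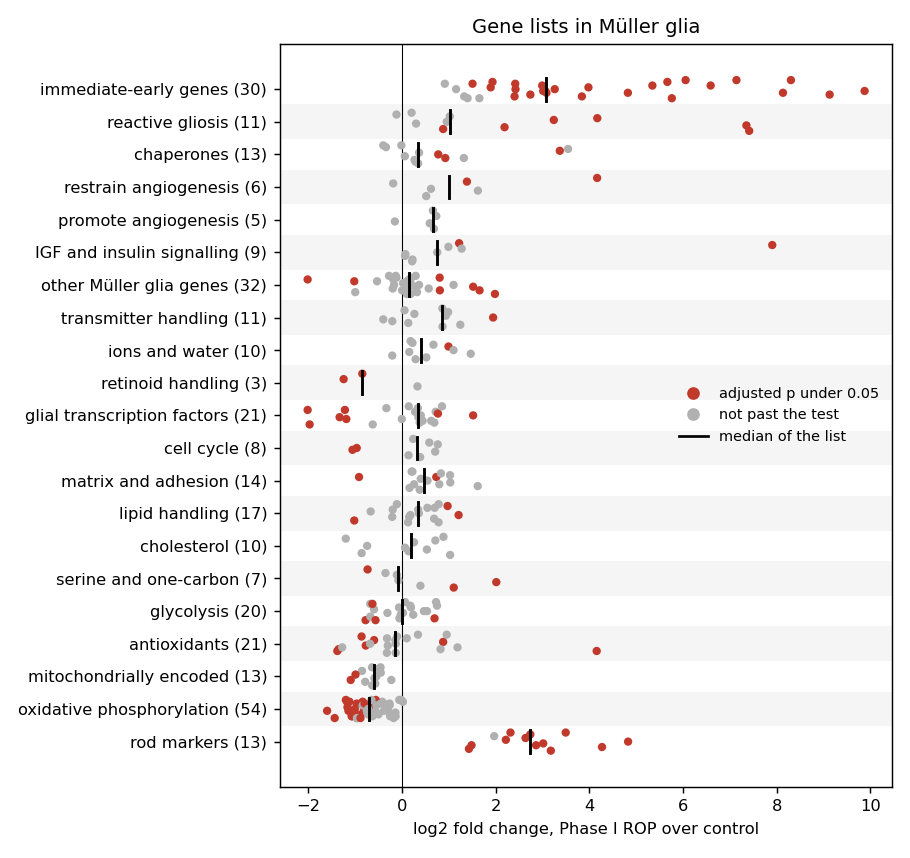
Log2 fold change of Phase I ROP over control in Müller glia (horizontal axis) for each tested gene of 21 lists (rows, with the number of genes tested), in red where the adjusted p was under 0.05, with the median of each list as a bar. Immediate-early genes lie to the right (median 3.07) and respiratory chain genes to the left (median -0.71), and rod markers (median 2.74) lie to the right in the sums of all members.

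The largest decreases formed no list. T2 on chromosome 17 went from 648, 592 and 412 CPM to 14.6, 17.9 and 6.66 (log2 fold change -5.39 ± 0.35, adjusted p = 1.01e-06). Rn7sk, the noncoding RNA that holds the elongation factor P-TEFb inactive, went from 283, 247 and 433 to 23.3, 4.48 and 0 (-4.93 ± 0.52, adjusted p = 6.55e-05), and the mitochondrial assembly factor gene Coa4 from 726, 679 and 509 to 43.8, 26.9 and 16.6 (-4.41 ± 0.31, adjusted p = 1.65e-06). All 5 mice on the diets were as low as Phase I ROP, with 0 to 8.83 for Rn7sk and 25.4 to 52.4 for Coa4. Unc13d, a vesicle priming gene, went from 1221, 285 and 959 to 90.5, 80.6 and 63.2 (-3.39 ± 0.41, adjusted p = 0.000178). The mitochondrial 16S ribosomal RNA mt-Rnr2 stood at 21138, 22603 and 35694 in the controls and 5542, 2417 and 3342 in Phase I ROP (-2.81 ± 0.36, adjusted p = 0.000272). The decrease of mt-Rnr2 was of like size in other classes of the same mice, at -2.71 in rods, -2.83 in bipolar cells and -2.78 in amacrine cells (log2 fold changes), each fitted on that class alone. In the joint fits of Müller glia with each class, the differences were -0.10 ± 0.09, -0.06 ± 0.10 and -0.12 ± 0.11 (adjusted p = 0.69, 0.873 and 0.797). Rn7sk fell by 5.82, 6.91 and 5.59 on the log2 scale in these classes. In Müller glia the 3 control libraries thus stood apart from the other 8 in mt-Rnr2 and Rn7sk. In the other classes both RNAs were lower in Phase I ROP than in control, and levels on the diets are not given there. Preparation and treatment cannot be told apart.

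The other large decreases were of genes whose levels varied widely among the control mice. H2-T23, a class Ib histocompatibility gene, stood at 354, 1271 and 42.6 in the controls and 35, 22.4 and 16.6 in Phase I ROP (log2 fold change -4.44, adjusted p = 0.0101). It was -4.40 and -4.21 without Phase I ROP mouse 2 or 3 (adjusted p = 0.0566 and 0.0569) and -2.91 without control mouse 2 (0.0407). Pola1, a DNA polymerase gene, stood at 275, 783 and 47.3 against 32.1, 13.4 and 16.6 (-4.05, adjusted p = 0.00848). It was -3.88 without Phase I ROP mouse 2 (0.0511) and -2.83 without control mouse 2 (0.0333). Atr, a DNA damage kinase gene, was high in control mouse 1 alone (517 against 38.3 and 54.4), and its call (0.0283) was lost without that mouse (log2 fold change -1.29, 0.228) or Phase I ROP mouse 1 (0.11), 2 (0.11) or 3 (0.073). Cyp2e1 was high in control mouse 2 alone (389 against 55.8 and 63.9), and its call (-3.28, 0.018) was kept without that mouse (-1.85, 0.0402) and lost without Phase I ROP mouse 1 (-3.20, 0.0791), 2 (-3.35, 0.0685) or 3 (-3.31, 0.0692).

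The rod markers themselves passed the same test in the sums of all members. Of the 13 tested, 12 were called higher (against 5.77% of all genes), with a median log2 fold change of 2.74. Prph2, a structural protein of photoreceptor discs, rose from 7.44, 0 and 11.8 CPM to 190, 242 and 263 (4.83 ± 0.43, adjusted p = 1.45e-05). The stricter set leaves out members by their rod markers, so these genes were not compared in it. In that set 476 genes were called in all, against 566 in all members.

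Of the named genes, the stricter set lost the calls of Adipor1 (adjusted p = 0.134), Igf1r (0.0975), Amt (0.0785), Dct, a melanin synthesis gene of the pigment epithelium list (0.071, against 0.0474 in all members), the glycolysis genes Eno1 (0.0648), Pgk1 (0.0648) and Tpi1 (0.0633), and Tuba1b (0.0543). It gained those of the GABA transporter gene Slc6a11 (log2 fold change 1.25, adjusted p = 0.0124), the dystroglycan gene Dag1 (0.76, 0.0246), Hspa1b, the cyclin gene Ccnd3 (0.97, 0.032), the growth factor gene Tgfb2 (0.55, 0.0359) and Vegfa. In all members the adjusted p of Slc6a11, Dag1, Ccnd3 and Tgfb2 was 0.0773, 0.0559, 0.0689 and 0.0615.

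The second comparison asked how the ω-6 diet differed from the ω-3 diet in Müller glia of Phase I ROP mice. None of 9728 genes passed the test of edgeR (0%), and the smallest adjusted p was 0.995. At an unadjusted p under 0.05 there were 351 genes (3.61%), and DESeq2 called 1 gene. Leaving out the first ω-6 mouse gave 2 called genes, and leaving out any other mouse none. All 28 lists were without a call, and the medians of the immediate-early, respiratory chain and reactive glia lists were -0.13, 0.24 and -0.21, against 0.0103 over all genes. The ω-6 libraries differed among themselves. The share counted as free RNA was 25.3% and 24.9% on the ω-3 diet and 16.4%, 62.4% and 49.2% on the ω-6 diet, so ω-6 mice 2 and 3 stood apart. Members that carry many rod genes are part of this share, and rod cells and free RNA cannot be told apart in it. In ω-6 mouse 2 the rod transcripts amounted to 13721 CPM in all members and 417 in the stricter set, which leaves out members by rod markers. The part of this share in the comparison was not tested.

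The genes with the smallest unadjusted p were mitochondrial ribosomal RNAs. mt-Rnr2 stood at 3222 and 2998 CPM on the ω-3 diet and 6911, 5866 and 4596 on the ω-6 diet (log2 difference 0.94 ± 0.18, adjusted p = 0.995). mt-Rnr1, the 12S ribosomal RNA, stood at 986 and 983 against 2471, 2246 and 1492 (1.11 ± 0.22, adjusted p = 0.995), and was the gene called by DESeq2 (adjusted p = 0.0449). The mice did not overlap for either, which held for 6.98% of all genes in this direction. In the stricter set both were called (adjusted p = 0.0422 each). With the replicate number as a block both were called as well (log2 differences 1.09 and 1.31, adjusted p = 0.000153 and 0.000111), although with 2 numbers shared by the diets nothing but the number ties the mice together. Hs3st3b1 and Ints10 were next in this direction (1.75 ± 0.39 and 1.63 ± 0.40). In the other direction the genes were Gad2, Rfx2, Irf8 and Pikfyve (-2.32, -2.36, -2.89 and -1.23, adjusted p = 0.995 each). Gad2 marks amacrine cells and Irf8 microglia. Over the 9 microglia markers the sum was 364 and 182 on the ω-3 diet and 45.2, 386 and 35.2 on the ω-6 diet, and its part in the value of Irf8 was not tested.

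Sparc was at 1852 and 2830 CPM on the ω-3 diet and 3019, 3437 and 2148 on the ω-6 diet (0.33 ± 0.23, adjusted p = 0.995). The groups overlapped, with the third ω-6 mouse below the second ω-3 mouse. Vegfa (126 and 235 against 234, 215 and 195, 0.30 ± 0.30) overlapped as well. Igf1r (204 and 198 against 184, 161 and 132, -0.31 ± 0.25), Dkk3 (1446 and 1748 against 1319, 1081 and 1032, -0.44 ± 0.18) and Vim (960 and 1015 against 1333, 1184 and 1037, 0.30 ± 0.18) did not overlap (12.3% of all genes did not in the direction of Igf1r and Dkk3) but did not pass either. Apoe (2122 and 2221 against 1929, 2011 and 1451, -0.23 ± 0.17) and Ccnd1 (332 and 311 against 285, 199 and 215, -0.43 ± 0.24) were likewise without overlap and did not pass. Clu, Sox9, Aqp4, Kcnj10, Adipor1, Elovl2, Fos and Egr1 overlapped and had differences between -0.37 and 0.10, all with adjusted p = 0.995. Gfap was at 37.4 and 1.77 against 39.5, 1.81 and 12.3, so the spread within a diet was larger than the difference (-0.31 ± 1.01).

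The third set of comparisons asked whether the response to Phase I ROP in Müller glia (647 cells of the 6 mice) differed from that in rods (4300 cells), bipolar cells (786) and amacrine cells (758) of the same mice. Each was tested as the difference between the 2 responses within mice, and the 3 share the Müller glia sums. Against rods 180 of 7997 genes (2.25%) differed, 160 (2%) with a higher and 20 (0.25%) with a lower log2 fold change in Müller glia. Against bipolar cells there were 51 of 7341 (0.695%), 41 higher (0.559%) and 10 lower (0.136%), and against amacrine cells 24 of 9851 (0.244%), 9 higher (0.0914%) and 15 lower (0.152%). A difference could come from either class. Of the genes with a higher value in Müller glia, 34 of 160 against rods, 6 of 41 against bipolar cells and 1 of 9 against amacrine cells were too low to be tested in Müller glia alone, and 35, 20 and 8 were themselves called there. These counts hung on single mice. Against rods 23 genes were left without Phase I ROP mouse 3, 93 without mouse 2 and 104 without mouse 1. Against bipolar cells 7 were left without Phase I ROP mouse 1 and 31 without control mouse 2, whereas 88 were called without control mouse 3. Against amacrine cells 98, 46 and 60 were called without control mouse 1, 2 and 3.

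All 4 classes had more immediate-early transcripts in Phase I ROP, and Müller glia had the most. Per 500 UMIs the mean per cell in Phase I ROP was 3.69 to 5.63 in Müller glia, 2.09 to 2.39 in amacrine cells, 1.38 to 1.61 in rods and 0.661 to 0.773 in bipolar cells. In the controls it was 0.569 to 0.979, 0.315 to 0.410, 0.203 to 0.296 and 0.121 to 0.144. The ranges of the classes did not overlap in either condition, so the order was the same in both, with Müller glia first. Single genes of the list differed in both directions. The response of Müller glia was larger than that of rods for Egr3 and Trib1 (of 33 tested, against 2% of all genes). It was smaller than that of rods for Fos, Egr1 and Plk2 (against 0.25% of all genes). It was larger than that of bipolar cells for Nr4a3 (of 32, against 0.559% of all genes). It was smaller than that of amacrine cells for Fos and Dusp1 (of 38, against 0.152% of all genes). Trib1 and Dusp1 were chosen after their values were seen, to complete these counts. In the stricter set the calls of Egr3 and Plk2 were lost (adjusted p = 0.0603 and 0.0583). The call of Egr3 was lost without Phase I ROP mouse 1 (adjusted p = 0.0501) or 3 (0.0983) or control mouse 3 (1), and that of Plk2 without Phase I ROP mouse 3 (0.0736) or control mouse 3 (0.0619). Over the alternatives the adjusted p of Egr1 reached 0.158 and that of Dusp1 0.205.

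**Figure D5:**
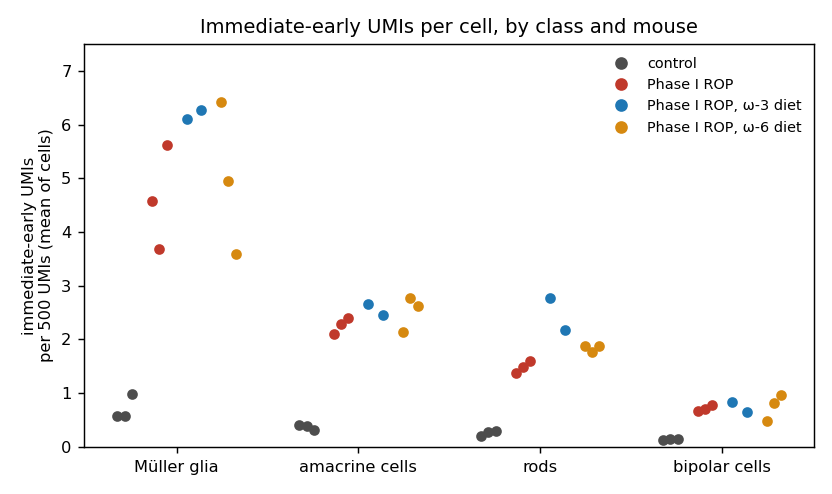
Mean number of immediate-early UMIs per cell thinned to 500 UMIs (vertical axis) in Müller glia, amacrine cells, rods and bipolar cells (horizontal axis), with 1 point per mouse coloured by group. Müller glia of Phase I ROP mice lie at 3.69 to 5.63 and those of control mice at 0.569 to 0.979, above the other classes in each condition.

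Fos, present in control Müller glia, rose less there than in amacrine cells. In amacrine cells Fos rose from 19.4, 28.9 and 61.6 CPM to 762, 792 and 1183, a log2 fold change of 4.66, against 1.90 in Müller glia. The difference of -2.90 ± 0.30 (adjusted p = 2.06e-05) kept its call in every alternative run. In Phase I ROP the levels of both classes overlapped, whereas in the controls every Müller glia value was above every amacrine value. Against rods the difference of Fos was -2.0 ± 0.51 (adjusted p = 0.0471), a call that was lost in other settings (adjusted p up to 0.317). Ubald1 showed the opposite, with 14.9, 16.4 and 14.2 in control and 161, 251 and 153 in Phase I ROP Müller glia, and 62.2, 54.4 and 66.2 against 42.0, 53.9 and 47.1 in amacrine cells (difference 3.89 ± 0.49, adjusted p = 0.000264). This call, too, was kept in every alternative run.

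Lmna, which encodes nuclear lamins A and C, was at 11.2, 5.48 and 7.10 CPM in control and 155, 331 and 223 in Phase I ROP Müller glia. In bipolar cells it was at 2.41, 14.4 and 5.27 against 7.13, 12.1 and 3.23, and in amacrine cells at 17.5, 15.3 and 32.0 against 32.5, 37.9 and 25.2. The response was larger in Müller glia than in bipolar cells (4.44 ± 0.97, adjusted p = 0.0447) and than in amacrine cells (4.25 ± 0.64, adjusted p = 0.00186). The first of these calls was lost without Phase I ROP mouse 1 (0.144), 2 (0.0882) or 3 (0.0954) or control mouse 2 (0.25). Nr4a3 was nearly absent from bipolar cells in both conditions (7.24, 0 and 2.64 against 0, 0 and 6.46), and its response there differed from that of Müller glia (adjusted p = 0.0202, and 0.0763 without Phase I ROP mouse 1 and 0.148 without control mouse 1). Ddit4, a stress-induced inhibitor of mTOR signalling, had values in opposite directions. In Müller glia it was at 59.6, 76.7 and 68.7 in the controls and 37.9, 58.2 and 43.3 in Phase I ROP, which did not pass the test (adjusted p = 0.342). It rose in rods, bipolar cells and amacrine cells, with log2 fold changes of 2.51, 1.85 and 2.40, and the difference was -3.05 ± 0.58, -2.49 ± 0.53 and -3.10 ± 0.55 (adjusted p = 0.00762, 0.0389 and 0.0108). Without Phase I ROP mouse 3 these adjusted p were 0.0589, 0.141 and 0.095. Against bipolar cells the call was also lost without Phase I ROP mouse 1 (0.192) or 2 (0.0835) or control mouse 1 (0.0807) or 2 (0.08), and against amacrine cells without Phase I ROP mouse 1 (0.0894).

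Some of these differences involved rod genes. Guca1a and Samd7, photoreceptor genes, were among the 4 largest differences against rods, but were too low to be tested in Müller glia alone. Gnat1, the rod transducin gene, was the largest against amacrine cells (5.13 ± 0.60, adjusted p = 0.000129). It went from 29.8, 16.4 and 9.47 CPM to 75.9, 107 and 86.5 in Müller glia (log2 fold change 2.32, adjusted p = 0.00631) and from 111, 119 and 105 to 22.9, 16.0 and 6.72 in amacrine cells (-2.91, adjusted p = 4.1e-05), so the fall in amacrine cells was the larger part. In the stricter set of members, which leaves out cells by rod markers, the difference of Guca1a, Samd7 and Gnat1 was 0.92, 2.96 and 2.70 (adjusted p = 1, 0.604 and 0.236). Bipolar and amacrine cells were chosen to have fewer than 3 rod markers, which Müller glia were not, and rod transcripts of Müller glia differed between the groups as given above.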

How the data were processed

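The deposited matrix held whole-number UMI counts of 25311 genes in 20067 cells. The authors made these counts with the inDrop v3 pipeline in bcbio-nextgen, assigning reads to GRCm38 transcripts with RapMap, and had removed cells with few reads. GRCm38.p6 and mm10 are both named in the submitters' processing notes. Here, cells with more than 300 genes were kept (20033). Müller glia, rods, bipolar and amacrine cells were taken by marker rules, no doublet caller was run, and doublets were treated through markers of other classes. The members and gene lists were chosen with earlier results of these data known. Counts were summed per mouse, the replicate, over members (178874 to 877162 UMIs). Sums were tested with edgeR 4.0.16 (quasi-likelihood, TMM, filterByExpr, Benjamini-Hochberg adjusted p under 0.05), with a term per mouse for differences between classes. SE is the log2 fold change over the root of F. The 9 genes of the rule stayed out of the tests.

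Genes were named as the 8 largest increases and decreases (4 for differences between classes) among called genes with at least 30 UMIs and no overlap between mice, up to 4 per list by p, the 4 smallest p per direction for diet, and 18 preset genes. Levels are CPM, UMIs scaled by library size and TMM factor. With 3 counts as the floor, folds against groups at 0 are lower bounds for counting error only. DESeq2 1.42.0, other scalings, filters, cell rules, thinned sums, subtraction of free RNA, a replicate block and leaving out each mouse were the alternatives. Gene positions were taken for 24480 genes (96.7%) from the GRCm38.p6 annotation, and promoters from RefSeq. The statistics were tested on simulated data. No value of the authors' cell clusters was used.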

Additional observations from a re-analysis of the deposited data

Results flagged for a closer look

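The response to Phase I ROP in Müller glia differed from that in another cell class, by the interaction test of edgeR with Benjamini-Hochberg adjustment, for the following named genes, given as the log2 fold change in Müller glia minus that in the other class. No explanation was tested for any of them.

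Against rods the differences above 0 were those of Egr3 (8.57), Guca1a (6.96), Samd7 (6.63) and Als2cl (6.45), and those below 0 were of Rnf144b (-5.85), Plk2 (-4.98), Id3 (-4.03) and Ddit4 (-3.05). Als2cl was at 0 to 8.95 CPM in Müller glia of both groups and at 73.4, 127 and 326 in control and 1.92 to 6.21 in Phase I ROP rods, so its difference was that of a fall in rods (log2 fold change -5.62). Guca1a, Samd7, Als2cl, Rnf144b and Plk2 were too low to be tested in Müller glia alone. The values of Egr3, Guca1a and Samd7 depend on the prior count, as no control Müller glia had a UMI. Rnf144b was at 17.9 to 49.7 in Müller glia and rose in rods from 0, 0 and 1.88 to 32.6, 52.1 and 60.8. When single mice were left out, calls were lost for Als2cl without Phase I ROP mouse 1 (adjusted p = 0.125) or 2 (0.0736), for Rnf144b without mouse 3 (0.0505), for Guca1a without Phase I ROP mouse 2 (0.226) or 3 (0.17) or control mouse 3 (0.14), for Samd7 without Phase I ROP mouse 3 (0.101), and for Id3 without Phase I ROP mouse 1 (0.19) or 3 (0.0507) or control mouse 1 (0.0985), 2 (0.0509) or 3 (0.0579).

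Against bipolar cells the differences above 0 were those of Nr4a3 (10.40, on no control UMI in Müller glia), Als2cl (6.98), Lmna (4.44) and Il17rd (4.29), and those below 0 were of Ankrd50 (-4.04), Rdh10 (-3.84), Ehmt1 (-2.72) and Ddit4 (-2.49). Als2cl, Il17rd and Ankrd50 were too low to be tested in Müller glia alone. In bipolar cells Als2cl fell by 6.48 on the log2 scale, and Il17rd went from 171, 63.5 and 47.4 CPM to 10.7, 4.04 and 9.69 (-3.31). In Müller glia Rdh10 stood at 514, 422 and 440 in the controls and 648, 497 and 586 in Phase I ROP, and in bipolar cells at 0 to 2.41 and 12.1 to 25.8. For each of these 8 genes the call was lost without Phase I ROP mouse 1, with adjusted p = 0.0763 for Nr4a3, 0.32 for Als2cl, 0.144 for Lmna, 0.0855 for Il17rd, 0.287 for Ankrd50, 0.111 for Rdh10, 0.219 for Ehmt1 and 0.192 for Ddit4.

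Against amacrine cells the differences above 0 were those of Gnat1 (5.13), Lmna (4.25), Mylk (4.16) and Ubald1 (3.89), and those below 0 were of Pttg1ip (-3.72), Ddit4 (-3.10), Fos (-2.90) and Coa4 (-2.75). Gnat1 fell in amacrine cells (-2.91), and Mylk was too low to be tested in Müller glia alone. In the stricter set the calls of Gnat1 and Mylk (1.52, adjusted p = 0.819) were lost, as was that of Ankrd50 against bipolar cells (-2.45, 0.358). Coa4 fell in both classes, from 196, 153 and 253 to 122, 39.9 and 18.5 CPM in amacrine cells. Its call was lost without Phase I ROP mouse 1 (adjusted p = 0.221), that of Mylk without Phase I ROP mouse 1 (0.0586), 2 (0.101) or 3 (0.12) or control mouse 3 (0.055), and that of Pttg1ip without Phase I ROP mouse 1 (0.104), 2 (0.163) or 3 (0.146) or control mouse 3 (0.0821).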

How the results depend on the processing

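Between Phase I ROP and control, the 566 called genes became 341 with DESeq2 and 323 with free RNA subtracted, and 267 to 478 when single mice were left out. Other settings gave 417 to 791. No named gene reversed, 268 values of named genes lost and 45 gained the call over all settings, and 2266 kept it or stayed without. Of the values for lists, 847 stayed and 133 moved.

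For diet, against 0 called genes, DESeq2 gave 1, no filter on low counts 24, the stricter set 2, and single mice left out 0 to 2. Against rods, the 180 genes became 108 with DESeq2, 75 with sums thinned to equal depth, 91 in the stricter set, and 23 to 182 when single mice were left out. Against bipolar cells, 51 became 12 with DESeq2, 123 with no filter on low counts, 25 when thinned, 103 in the stricter set, and 7 to 88 without single mice. Against amacrine cells, 24 became 15 with DESeq2, 113 with no filter, 56 in the stricter set, and 16 to 98 without single mice. The cause was not tested. The fits without Optc cells were chosen after the data were seen.

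Replicate numbers were not taken to pair the mice, and the correlations below cannot decide whether they do. Deviations from a group mean cancel within the group, so with so few mice the correlations depend on one another. Same-numbered control and Phase I ROP mice had correlations of 0.000845, 0.0416 and 0.115 in their deviations from the group means, and not every mouse correlated best with its own number. With the replicate block 560 genes were called for Phase I ROP and 8 for diet, where the 2 same-numbered pairs had correlations of 0.111 and 0.240. Depth limits the genes that could be tested, as the smallest sum held 178874 UMIs.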
